A study of Capra hircus with 2 samples.

Results

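Fibrillar collagens are described here through 4 transcripts, those of COL1A1, COL1A2, COL3A1 and COL2A1, out of 11663 transcript accessions listed in skeletal muscle of Chinese Xuhuai goats (Capra hircus). The 4 were chosen by accession: NM_001034039 for COL1A1, NM_174520 for COL1A2, NM_001076831 for COL3A1 and NM_001001135 for COL2A1. These are cattle RefSeq transcripts, and the gene names are those of the cattle accessions, since the deposited lists give no symbols. All 4 had reads in both libraries.

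The study asked which genes differ between 2 stages of development of longissimus thoracis, a long muscle of the back. RNA sequencing gave 1 library from goats aged 6 months, with 9144138 unique reads, and 1 library from fetuses at day 90 of a gestation of 150 days, with 12811117 unique reads. The labels give the same breed and muscle for both libraries and name no treatment. The sampling text of the older muscle repeats that of the fetal one, so how the 6-month muscle was taken is uncertain. How many animals went into each library, and whether they were pooled, was not stated in the labels. No difference below therefore has a replicate check, and no p-value was computed. The 95% intervals cover counting error only and compare 2 libraries, not 2 populations of animals. They treat each read as a separate molecule, which was not checked.

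Fibrillar collagens are secreted as procollagens, trimmed by proteases, and assembled into the striated fibrils that carry tension in connective tissue. Type I collagen is a heterotrimer in which α1 chains, from COL1A1, outnumber the α2 chain, from COL1A2. It is the main collagen of tendon, bone and skin, and of the sheaths around muscle and its fibre bundles. Type III collagen is a homotrimer of the COL3A1 chain that shares fibrils with type I in distensible tissue, and in muscle it is found in the perimysium and endomysium. Type II collagen, a homotrimer of the COL2A1 chain, is the fibrillar collagen of cartilage and is used as a marker of chondrocytes. In skeletal muscle the type I and type III genes are transcribed mainly by fibroblasts and related connective tissue cells, rather than by muscle fibres.

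The 3 collagens of muscle connective tissue were all abundant in fetal muscle and 7.75 to 16.8 times lower in read share at 6 months, and the cartilage collagen was rare in both. Together the 4 transcripts took 0.393% of the reads at 6 months (95% Clopper-Pearson interval 0.388% to 0.397%) and 5.04% of the fetal reads (5.03% to 5.05%). Their summed level was 793 RPKM at 6 months and 10385 RPKM in the fetal library, where RPKM is reads normalised to the length of the transcript and to the read total of the library. The order of levels also differed, being COL1A1, COL3A1, COL1A2, COL2A1 at 6 months and COL1A1, COL1A2, COL3A1, COL2A1 in the fetal library. In both libraries the intervals of neighbours in this order did not overlap, though they do not cover how well goat reads were counted on each cattle transcript. None of these values was centred for the generally lower RPKM at 6 months described below. In whole tissue, fewer connective tissue cells and less collagen RNA per cell cannot be told apart.

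**Figure D1:**
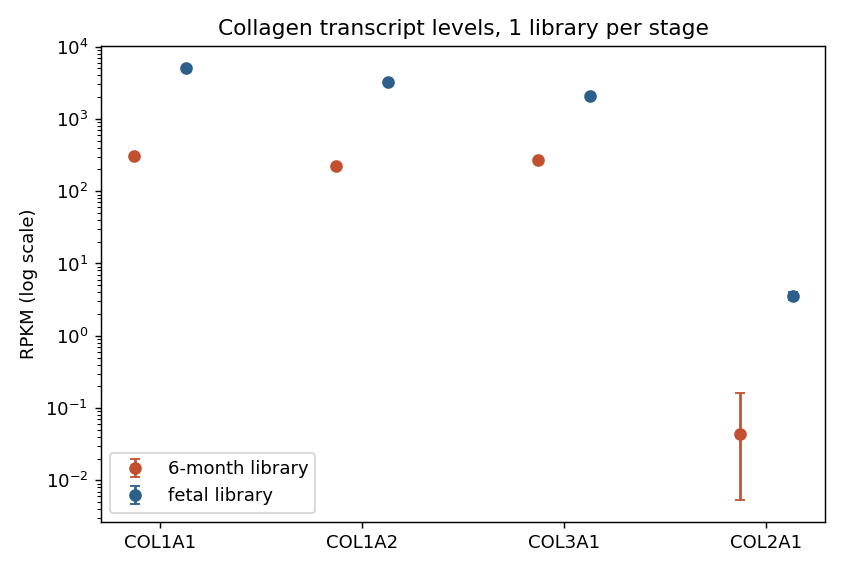
Level of each collagen transcript in RPKM on a log scale, with the 6-month library to the left of the fetal library; each point is 1 library and bars are 95% counting intervals. COL1A1, COL1A2 and COL3A1 lie between 221 and 304 RPKM at 6 months and between 2072 and 5112 RPKM in the fetal library, whereas COL2A1 is at 0.044 RPKM at 6 months and 3.55 RPKM in fetal muscle.

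COL1A1, the α1 chain of type I collagen, had 13197 reads and a level of 304 RPKM at 6 months, against 311154 reads and 5112 RPKM in the fetal library. By number of reads it ranked 75th among 6-month accessions and 2nd among fetal ones. On the per-length scale it was in position 270 at 6 months and in position 19 in the fetal library. The difference in log2(RPKM + 1), 6-month minus fetal, was -4.07, and the read share was 16.8-fold lower at 6 months (16.5 to 17.1). On both scales this was the strongest difference among the 3 connective tissue collagens.

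COL1A2, which encodes the α2 chain of the same molecule, had 9365 reads and 221 RPKM at 6 months, against 189532 reads and 3197 RPKM in the fetal library. It took position 106 by reads at 6 months and position 3 in the fetal library, directly after COL1A1. The difference in log2(RPKM + 1) was -3.85, and the read share was 14.4-fold lower at 6 months (14.1 to 14.7). The interval lies below that of COL1A1, so the difference in share was smaller for COL1A2 than for COL1A1 beyond counting error. Summed, both type I transcripts took 0.247% of the 6-month reads and 3.91% of the fetal reads.

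COL3A1, the chain of type III collagen, had 13329 reads and 268 RPKM at 6 months, against 144636 reads and 2072 RPKM in the fetal library. It was in position 73 by reads at 6 months, 2 places above COL1A1, and in position 6 in the fetal library, below both type I transcripts. The COL3A1 transcript has 5448 bases against 4751 for COL1A1, so at 6 months it was above COL1A1 in reads and below it in RPKM, which divides by length. The difference in log2(RPKM + 1) was -2.95 and the read share was 7.75-fold lower at 6 months (7.61 to 7.88). COL3A1 thus differed less between the libraries than either type I transcript.

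COL2A1, the cartilage collagen, had 2 reads and 0.044 RPKM at 6 months, against 225 reads and 3.55 RPKM in the fetal library. It was in position 10161 by reads at 6 months and in position 5822 in the fetal library, so it was a minor transcript in both. The difference in log2(RPKM + 1) was -2.12, on a scale where the added 1 RPKM shrinks differences between low values. The read share was 80.3-fold lower at 6 months, but with 2 reads in the lower library the interval ran from 22.0 to 667. With a pseudocount of 5 in place of 1 the difference was -0.76, under the size of 1 log2 unit used for calls. The 225 fetal reads covered only 14.05% of the transcript, as described below. No difference in COL2A1 RNA is therefore drawn from these values.

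A transcript was called higher or lower when log2(RPKM + 1) differed by at least 1, about 2-fold, among 9705 accessions with at least 1 RPKM in either library. COL1A1, COL1A2 and COL3A1 were called lower at 6 months. In that direction 35.1% of the accessions compared were called, while 9.46% were called higher. The same collagens also passed a size of 2 log2 units, which 10.8% of accessions did in the same direction and 3.49% in the other. COL2A1 met both sizes as well, but it reached 1 RPKM only in the fetal library. No call but lower was therefore open to it. The median difference of the 9705 accessions was -0.61 log2 units (interquartile range -1.30 to 0.14), so RPKM was in general lower at 6 months. After the libraries were centred on their median log2 ratio of -0.58, 2162 accessions were called lower and 1674 higher, in place of 3411 and 918. The centred differences were -3.49 for COL1A1, -3.27 for COL1A2, -2.37 for COL3A1 and -2.09 for COL2A1.

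Against this background the type I transcripts stood near the end of the range. A more negative difference than that of COL1A1 was found for 80 of the 9705 accessions (0.82%), and for COL1A2 the number was 101 (1.04%). For COL3A1 it was 320 (3.30%). For COL2A1 it was 884 (9.11%). Level and difference are linked, because a large negative difference needs a high fetal level. Among the 116 accessions with at least 1000 RPKM in the fetal library, the median difference was -1.86 (interquartile range -2.30 to -1.08), and 90 of them were called lower at 6 months and 12 higher. Within that set COL1A1 had the 8th most negative difference, COL1A2 the 9th and COL3A1 the 16th. The 116 were picked by fetal level, which is also the value subtracted, so the set leans towards negative differences. These ranks describe the set and are no separate support for a difference.

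**Figure D2:**
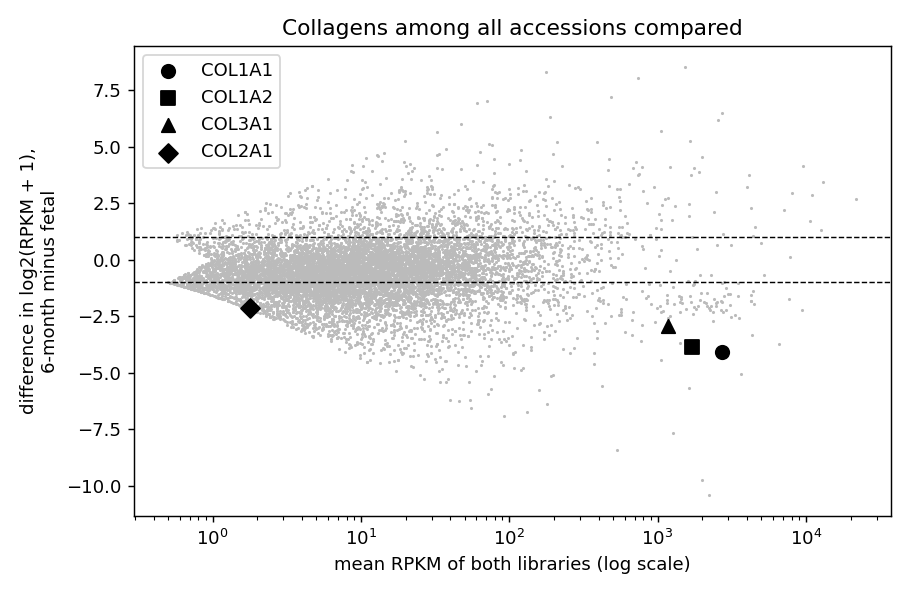
Difference in log2(RPKM + 1), 6-month minus fetal, against the mean RPKM of both libraries (log scale) for the 9705 accessions compared (grey), with the 4 collagens in black and dashed lines at the size used for calls. COL1A1, COL1A2 and COL3A1 lie at -4.07, -3.85 and -2.95, below most other abundant accessions but not the lowest of them; COL2A1 lies at -2.12 on the edge set by the pseudocount.

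Because the 3 collagens differed by unequal amounts, the make-up of the summed collagen level was not the same at both stages. COL1A1 accounted for 38.3% of the summed RPKM at 6 months and 49.2% in the fetal library. COL1A2 accounted for 27.9% at 6 months and 30.8% in the fetal library. COL3A1 had the larger part at 6 months, 33.8%, against 19.96% in the fetal library. COL2A1 was a trace component, with 0.0056% at 6 months and 0.034% in the fetal library. This share depended on how it was computed. It came to 0.152% at 6 months, against 0.242% in the fetal library, when levels were set per covered base. The 2 reads at 6 months did not overlap, so COL2A1 was there at the lowest level that setting allows for a detected transcript. With 1 RPKM added to each level it came to 0.131% at 6 months, against 0.0438% in the fetal library, which turns the order. At 6 months COL2A1 was at 0.044 RPKM, so the added 1 RPKM made up nearly all of its level. The turn follows from the added value and says nothing about COL2A1.

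**Figure D3:**
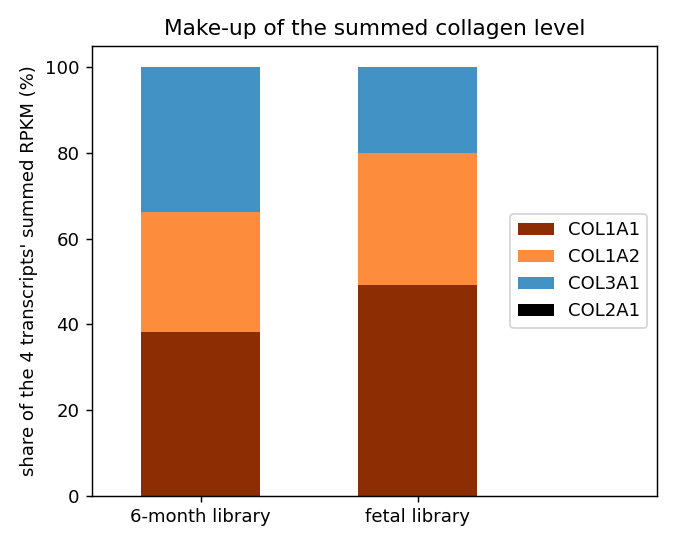
Share of the summed RPKM of the 4 collagen transcripts held by each, in percent, in the 6-month library and the fetal library (1 library each). COL3A1 holds 33.8% at 6 months and 19.96% in the fetal library, COL1A1 holds 38.3% at 6 months and 49.2% in fetal muscle, and COL2A1 is too small to be seen.

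Ratios between transcripts of 1 library do not depend on the scaling between libraries, and were compared next. The COL1A1 to COL1A2 ratio of RPKM was 1.37 at 6 months (1.34 to 1.41) and 1.60 in the fetal library (1.59 to 1.61). The ratio at 6 months was 0.858 times that of the fetal library (exact conditional 95% interval 0.835 to 0.882). In both libraries, then, COL1A1 RPKM was above COL1A2 RPKM, and the excess was smaller at 6 months.

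The balance of type III to type I RNA differed more. The COL3A1 to COL1A1 ratio was 0.881 at 6 months (0.860 to 0.902) and 0.405 in the fetal library (0.403 to 0.408), 2.17 times higher at 6 months (2.12 to 2.23). The COL3A1 to COL1A2 ratio, a comparison added after the data were seen, was 1.21 at 6 months (1.18 to 1.24) and 0.648 in the fetal library (0.644 to 0.653), 1.87 times higher at 6 months (1.81 to 1.92). COL3A1 RPKM thus exceeded COL1A2 RPKM at 6 months and was below it in the fetal library. Whether goat reads were counted equally well on each cattle transcript was not measured. The order of genes within a library is therefore less certain than the difference of a ratio between libraries. How far these ratios vary between animals of 1 stage was not measured.

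**Figure D4:**
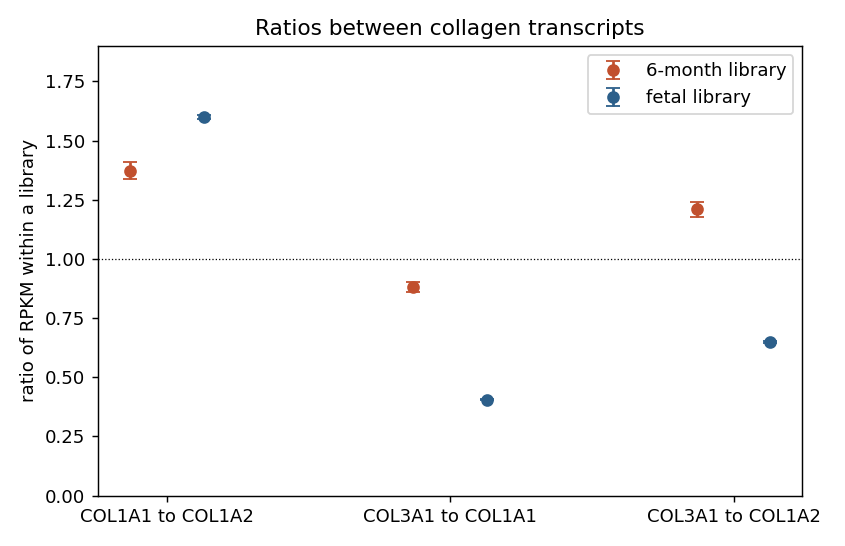
Ratio of RPKM between collagen transcripts within the 6-month library (left point of each pair) and the fetal library (right point), with 95% counting intervals and a dotted line at equal levels. At 6 months the ratios are 1.37 for COL1A1 to COL1A2, 0.881 for COL3A1 to COL1A1 and 1.21 for COL3A1 to COL1A2, against 1.60, 0.405 and 0.648 in the fetal library, and no pair of intervals overlaps.

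Cartilage collagen was compared with type I collagen in the same way. COL2A1 RPKM was 0.000145 times COL1A1 RPKM at 6 months (1.76e-05 to 0.000525) and 0.000693 times in the fetal library (0.000606 to 0.00079). The ratio at 6 months was 0.21 times the fetal one, with a wide interval of 0.025 to 0.766. Relative to COL1A1, the COL2A1 count was thus lower at 6 months beyond counting error only if its reads are independent counts. The 225 fetal reads covered 14.05% of the transcript, as described below, so no difference in COL2A1 RNA is drawn from this ratio.

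The deposited coverage, the percentage of a transcript's bases reached by at least 1 read, separated COL2A1 from the other collagens. COL1A1 was covered over 99.83% of its bases at 6 months and 99.98% in the fetal library. COL1A2 was covered over 99.68% at 6 months and 99.98% in the fetal library. COL3A1 was covered over 98.46% at 6 months and over 99.25% of its bases in the fetal library. Among other accessions within 1.2 times the depth of each, the median coverage was 90.7% to 91.7% at 6 months and 91.0% to 94.4% in the fetal library. At 6 months all 74 accessions of like depth had no more coverage than COL1A1, and in the fetal library this held for all 15.

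The fetal COL2A1 reads, by contrast, lay on a small part of the transcript. The 225 reads covered 14.05% of 4954 bases, about 696 bases. With reads of 90 bases this is 4.09 read-bases per base over the whole transcript and 29.1 per base over the covered part. The 721 other accessions within 1.2 times that depth had a median coverage of 69.5% (interquartile range 59.3% to 79.1%), and 1 of them was at or below 14.05%. Of the 6135 accessions with at least 200 fetal reads, 2 had a coverage of 14.05% or less, COL2A1 among them. At 6 months the 2 reads covered 3.63%, about 180 bases, which is 2 reads that do not overlap. That value is near the median of 3.69% for 91 accessions of like depth.

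**Figure D5:**
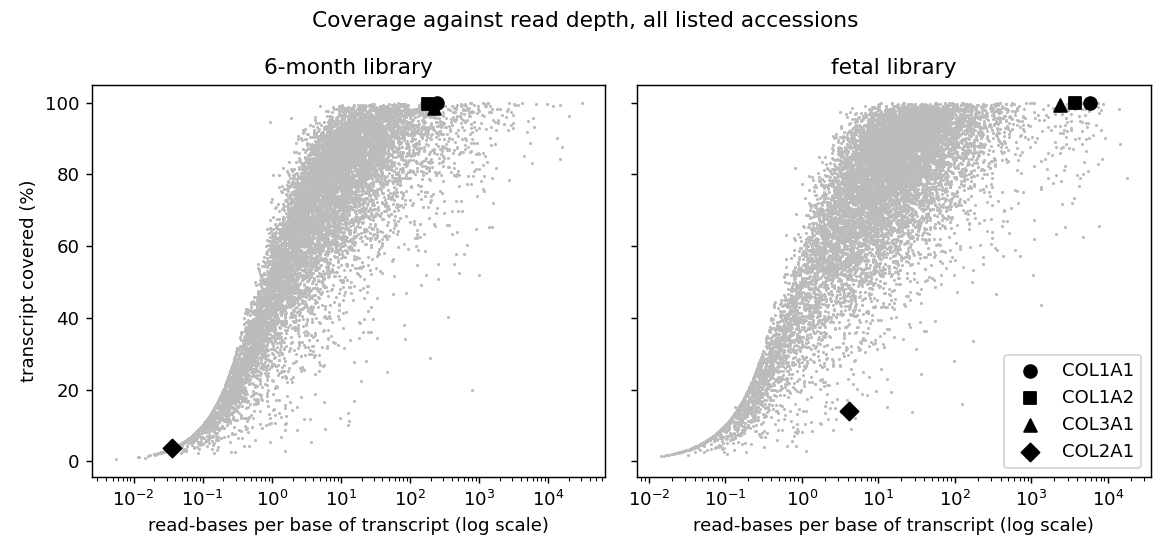
Percentage of each transcript covered by reads against read-bases per base (log scale) for all listed accessions (grey) in the 6-month library (left) and the fetal library (right), with the 4 collagens in black. COL1A1, COL1A2 and COL3A1 sit at 98.46% to 99.98%, and fetal COL2A1 sits at 14.05%, far below most accessions of the same depth.

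The files do not say where in COL2A1 the covered bases lie. The fetal value of 3.55 RPKM therefore describes reads on part of the transcript, and whether it stands for COL2A1 RNA, whole or in part, was not tested. The counting interval treats those 225 reads as separate molecules, which stacked reads need not be. Whether other cartilage genes were present was not analysed here, because no other accession could be given a gene name.

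In the space of both libraries' log2(RPKM + 1) values, neighbours of the 3 connective tissue collagens were counted. They were sought among 5583 other accessions with at least 10 RPKM in either library. Within a Euclidean distance of 0.5 log2 units, COL3A1 had 4 neighbours, COL1A2 had 1 and COL1A1 had 0. COL1A1 and COL1A2 were 0.82 apart and COL1A2 and COL3A1 were 0.68 apart, while COL1A1 and COL3A1 were 1.32 apart. COL2A1 lay 11.9 or more from the other collagens. With that minimum COL2A1, below 10 RPKM in both libraries, could have no neighbour within 0.5. Neighbours of other transcripts of like level were not counted, so a low number is not shown to be particular to these collagens. The distances rest on 2 libraries, and the neighbouring accessions have no gene names here.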

How the data were processed

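Per the labels' protocols, Trizol was used to extract RNA from frozen muscle, and Illumina libraries were made. The sources used here name no aligner, counting rule, strand setting or genome build. Each list deposited by the authors holds, per the file headers, a count of unique reads, a length, a percent coverage and an RPKM for every transcript. Deposited counts summed to the header totals, and the authors' RPKM was recovered from them within a relative difference of 1e-06 for all 10850 6-month and 11393 fetal accessions. A read spanned 90 bases, from the accessions with 1 read, 326 at 6 months and 235 in the fetal library. An accession missing from a list had 0 reads, which allows a share of up to 3.28e-05% at 6 months and 2.34e-05% in the fetal library (3 counts).

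Differences were log2(RPKM + 1), 6-month minus fetal, called at 1 log2 unit with at least 1 RPKM in either library. Share ratios and within-library ratios have exact conditional 95% intervals. For centring, 6-month RPKM was scaled by the median ratio over 8201 accessions with at least 1 RPKM in both libraries. Calling and intervals were tested on simulated data drawn as independent counts. The simulation had no stacked reads, no variation between animals and no general shift. How calling and intervals perform on these data was therefore not shown. The members and lists were chosen with earlier results of these data known. Of the 11663 accessions, 0 were in the goat RefSeq table (ARS1.2), so the other lists (other collagens, collagen synthesis, receptors, regulators, cell type markers) gave no values. The genes to be named were the 4 collagens, leading list members and nearest accessions; without symbols only the 4 are named. The check of tissue against muscle markers was likewise not made. No sequence is shown. Calculations used SciPy 1.17.1, NumPy 2.4.6 and pandas 2.3.3 under Python 3.11.15, with matplotlib 3.10.9 for plots.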

Additional observations from a re-analysis of the deposited data

How the results depend on the processing

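Leaving out a replicate was not possible with single libraries. No paired analysis was possible because each stage has a single library. Over all settings tried, the difference ranged from -4.14 to -3.43 log2 units for COL1A1, from -3.92 to -3.20 for COL1A2 and from -3.02 to -2.31 for COL3A1, and each stayed called. Settings that change only a minimum or the size for a call cannot alter the difference itself. COL2A1 ranged from -4.66 with a pseudocount of 0.1 to -0.76 with a pseudocount of 5, where its call was lost, and it was not compared at a minimum of 5 RPKM. The COL3A1 to COL1A2 ratio, with the lengths tried for it, was added after seeing the data. Settings added then were totals without the 4 collagens, a minimum of 20 reads, and length taken as covered bases, which put COL2A1 at -3.57. The 3411 accessions called lower at 6 months became 1811 with a pseudocount of 5, 1051 at 2 log2 units, 2162 with median centring and 2055 with trimmed mean centring. The 918 called higher became 339 at 2 log2 units, 1674 with median centring and 1784 with trimmed mean centring. Accessions lower at 6 months made up 78.8% of all calls as deposited, 56.4% with median centring and 53.5% with trimmed mean centring. With covered length the fetal ratios became 0.408 for COL3A1 to COL1A1 and 0.653 for COL3A1 to COL1A2. The COL2A1 share of the summed RPKM became 0.152% at 6 months and 0.242% in the fetal library with covered length. With a pseudocount of 1 it became 0.131% at 6 months and 0.0438% in the fetal library. That turns the order of the libraries, but the 6-month value is then nearly all pseudocount. The share of reads on the 4 collagens became 0.591% at 6 months and 6.29% in the fetal library without the 50 most abundant accessions (collagens kept), and 0.122% at 6 months and 1.48% in the fetal library as a share of summed RPKM. Counts over the other gene lists were not run under any setting, since no list member could be matched to an accession.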
